A study of Mus musculus with 36 samples.

Results

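The genes described here encode subunits of the 5 complexes of oxidative phosphorylation, measured in the livers of mice that lack the insulin receptor, encoded by Insr, in hepatocytes, and of their controls. They were taken by symbol, as every gene of the array whose name starts with Nduf and an a, b, c, s or v with a number, is Sdha to Sdhd, or starts with Uqcr, Cox4 to Cox8 or Atp5. This gave 84 genes, of which 82 had a probe that at least 6 of the 36 arrays read as well above background, among 22916 genes that passed the same filter. The 82 were 37 genes of complex I, 4 of complex II, 8 of complex III, 15 of complex IV and 18 of complex V. Cox8b, the heart and muscle form of subunit 8, was above background on 3 arrays and Cox8c, its testis form, on 0, so neither was measured. Cox6a2 was above background on 35 arrays and the other members that passed on all 36. The rule takes names, not enzymes: it counts Ndufa4, now regarded as a subunit of complex IV, and its paralog Ndufa4l2 under complex I, and it includes the supercomplex factor Cox7a2l, the pseudogene entry Atp5c1-ps, and Atp5s and Atp5sl, which are not subunits of ATP synthase. It does not take Ndufab1, a subunit of complex I, or Cyc1, cytochrome c1 of complex III, which are counted in later lists.

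RNA came from livers of male mice aged 11 weeks, fed chow ad libitum and untreated per the labels, with 1 array per sample and lights off at Zeitgeber time (ZT) 12. The knockout (labelled IRLKO) came from mice with loxP sites around exon 4 of Insr, crossed to C57BL/6J mice in which a tamoxifen-inducible Cre is driven in the liver by the transthyretin (TTR) promoter; the control is labelled IRLWT. Each genotype was sampled at ZT8, ZT12 and ZT16 with 6 mice a group, so 6 groups in all. The date of the tamoxifen doses and the Cre status of controls are not given in the sources used here, and the p-values measure the spread between these samples.

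Oxidative phosphorylation is the process by which mitochondria make most of the ATP of a cell. Complex I oxidises NADH and complex II succinate, and both pass electrons to ubiquinone. Complex III hands them to cytochrome c and complex IV to oxygen, and complex V, the ATP synthase, uses the proton gradient that complexes I, III and IV build. Nearly all of these subunits are made from nuclear genes, which the coactivator PGC-1alpha (Ppargc1a) and the factors NRF1, GABP, YY1 and ERRalpha are known to control. In liver this capacity powers gluconeogenesis, urea synthesis and fat oxidation, and insulin is known to restrain Ppargc1a.

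RefSeq promoters (build GRCm38.p6, from 250 bases before to 50 bases after the start of transcription) were at hand for 67 of the 82 members, and 6 are printed to show how the windows of members that moved differently differ in letters. Cox7a1 and Cox7a2 are the muscle and liver forms of 1 subunit, Cox6a1, Ndufs8 and Ndufb3 were lower in knockouts at every time, and Atp5k holds 3 of the 4 motifs searched. Each runs 5′ to 3′ in lower case, and capitals mark matches to GCGCA, any base and GCGC in a row (NRF1), CCGGAAG (ETS factors such as GABP), AAGATGGC (YY1) or AAGGTCA (ERR) on either strand.
Cox7a1 (chr7:30183921-30184220, plus strand): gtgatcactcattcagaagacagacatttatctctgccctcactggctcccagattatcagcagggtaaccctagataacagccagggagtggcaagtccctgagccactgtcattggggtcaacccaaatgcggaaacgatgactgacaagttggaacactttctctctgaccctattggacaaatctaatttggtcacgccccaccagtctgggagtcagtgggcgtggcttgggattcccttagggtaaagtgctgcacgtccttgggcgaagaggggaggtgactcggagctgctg
Cox7a2 (chr9:79759804-79760103, minus strand): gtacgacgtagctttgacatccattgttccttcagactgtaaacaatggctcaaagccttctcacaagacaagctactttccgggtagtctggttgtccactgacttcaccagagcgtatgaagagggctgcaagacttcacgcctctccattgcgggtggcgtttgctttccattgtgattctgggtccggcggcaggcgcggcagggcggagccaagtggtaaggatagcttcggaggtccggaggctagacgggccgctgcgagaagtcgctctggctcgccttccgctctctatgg
Cox6a1 (chr5:115348909-115349208, minus strand): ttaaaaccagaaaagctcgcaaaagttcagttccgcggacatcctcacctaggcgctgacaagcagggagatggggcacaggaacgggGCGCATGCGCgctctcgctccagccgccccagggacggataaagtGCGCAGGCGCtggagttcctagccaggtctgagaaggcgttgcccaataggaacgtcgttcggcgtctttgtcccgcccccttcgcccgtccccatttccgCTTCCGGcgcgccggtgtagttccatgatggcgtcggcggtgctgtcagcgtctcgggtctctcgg
Ndufs8 (chr19:3912725-3913024, minus strand): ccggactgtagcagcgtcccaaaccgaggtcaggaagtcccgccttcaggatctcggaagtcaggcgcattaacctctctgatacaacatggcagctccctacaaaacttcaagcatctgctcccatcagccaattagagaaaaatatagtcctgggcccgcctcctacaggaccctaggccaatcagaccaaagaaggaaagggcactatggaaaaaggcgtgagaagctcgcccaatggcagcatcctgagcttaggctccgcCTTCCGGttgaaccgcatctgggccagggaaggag
Ndufb3 (chr1:58586147-58586446, plus strand): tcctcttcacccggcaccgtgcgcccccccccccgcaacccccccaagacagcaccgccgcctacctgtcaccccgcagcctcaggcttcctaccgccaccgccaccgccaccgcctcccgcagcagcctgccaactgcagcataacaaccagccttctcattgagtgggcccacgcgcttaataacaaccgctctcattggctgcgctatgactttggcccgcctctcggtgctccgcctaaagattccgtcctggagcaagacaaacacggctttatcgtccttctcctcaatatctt
Atp5k (chr5:108434350-108434649, minus strand): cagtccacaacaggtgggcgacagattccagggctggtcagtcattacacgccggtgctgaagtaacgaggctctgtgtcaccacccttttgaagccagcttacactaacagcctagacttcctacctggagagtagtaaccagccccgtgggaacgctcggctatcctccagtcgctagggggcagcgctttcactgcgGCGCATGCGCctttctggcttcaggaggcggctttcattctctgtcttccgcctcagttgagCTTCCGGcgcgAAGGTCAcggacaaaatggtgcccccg
Of the 67 members, 17 held the NRF1 letters, which is 25.4% against 5.19% of all 27025 genes with a window of this length. Those 27025 include genes that did not pass the background filter here, which the members all did. The ETS letters lay in 16 members (23.9% against 9.93%), the YY1 letters in 11 (16.4% against 3.19%) and the ERR letters in 8 (11.9% against 5.38%). At least 1 of the 4 was found in 39 members (58.2% against 21.1%). Matches were commoner among the genes tested here that have a window. Of these, 1173 held the NRF1 letters and 11424 did not, and 3783 held at least 1 of the 4 and 8814 none. Members' windows were also richer in G and C, with a median of 57.3% against 52.7%. Cox6a1 held 2 NRF1 matches and 1 ETS match, Ndufs8 an ETS match, and Atp5k an NRF1, an ETS and an ERR match. None of these letters were found in the windows of Cox7a1, Cox7a2 or Ndufb3.

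Expression is given as the level, the log2 of the processed spot intensity minus the log2 of that array's 75th percentile, so that 0 is the array's own 75th percentile. A difference is the knockout level minus the control level, and a member was called higher or lower where limma's p, adjusted by Benjamini-Hochberg over all 22916 genes, was under 0.05. The 75th percentile itself ran from 311 to 525 intensity units over the arrays, and 53.7% to 63.1% of spots were well above background, with 0 saturated. Insr checked the labels: its level was −1.86 to −1.02 in controls and −3.95 to −2.94 in knockouts, with no overlap, a change of −70.7% averaged over the times (log2 −1.77 ± 0.08 SE, adjusted p = 2.35e-18 by limma; log2 −0.97 with normexp background correction). Its probe lies at chr8:3155472-3155531 (mm9), and whether that is in the deleted exon was not determined here. Albumin fell (−0.38), Ttr, whose promoter drives the Cre, fell (−1.04), and Cps1 (0.21) and Tat (0.32) rose, so of 5 hepatocyte markers 2 rose and 2 fell.

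Averaged over the 3 times, knockout livers held less mRNA of most complex I genes and mixed changes in the other complexes. Of the 82 members, 47 were called lower (57.3%) and 7 higher (8.54%), where 30.1% of all genes tested were lower and 30% higher. The members' median difference was −0.12, against −0.00 over all genes. These genes are bright, however, and of the 3133 other genes with a mean level from 3.26 to 7.64, the range between the members' 10th and 90th percentiles, 45.7% were lower and 29.2% higher, with a median of −0.08. In bulk liver, fewer cells of a type and less RNA per cell cannot be told apart. Markers of several other liver cells moved with genotype in the average: 5 of 5 Kupffer cell and macrophage markers were higher (median 0.63), as were 4 of 5 endothelial and 3 of 5 stellate cell markers. Of 4 bile duct markers 1 was higher (median 0.04). At ZT8 alone the markers of these cell types were not called. The summed linear level of the macrophage markers ran from 8.95 to 23.8 in controls and from 12.8 to 39.6 in knockouts, and that of the hepatocyte markers from 2012 to 2621 and from 1386 to 2107. The hepatocyte sum rests mostly on Alb and Ttr, the brightest at mean levels of 10.2 and 8.75, which both fell. The median difference of the 5 hepatocyte markers was 0.09. The part of these cell markers in the members' differences was not tested.

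The complexes differed in their counts. In complex I, 29 of 37 genes were lower and 1 higher, with a median of −0.17, or a change of −11.1%. In complex III, 4 of 8 were lower and 1 higher (median −0.09), in complex IV 5 of 15 lower and 3 higher (median −0.03), and in complex V 8 of 18 lower and 2 higher (median −0.05). As shares, 78.4% of complex I, 50% of complex III, 33.3% of complex IV and 44.4% of complex V were lower. Among other genes of like level 45.7% were, so only complex I lay well above that share. Complex II, which is also an enzyme of the tricarboxylic acid cycle, had 1 of 4 lower and 0 higher; its median of 0.05 turned to −0.01 under quantile normalization and under median scaling. No test of 1 complex against another was made. Of the 54 members called, 52 had the same sign within each of the 3 wash batches, which each held all 6 groups. The batches are parts of the same arrays that gave the calls, so this is a description and not a separate check. With the authors' own value table as input, the split for all members was 44 lower and 14 higher.

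**Figure D1:**
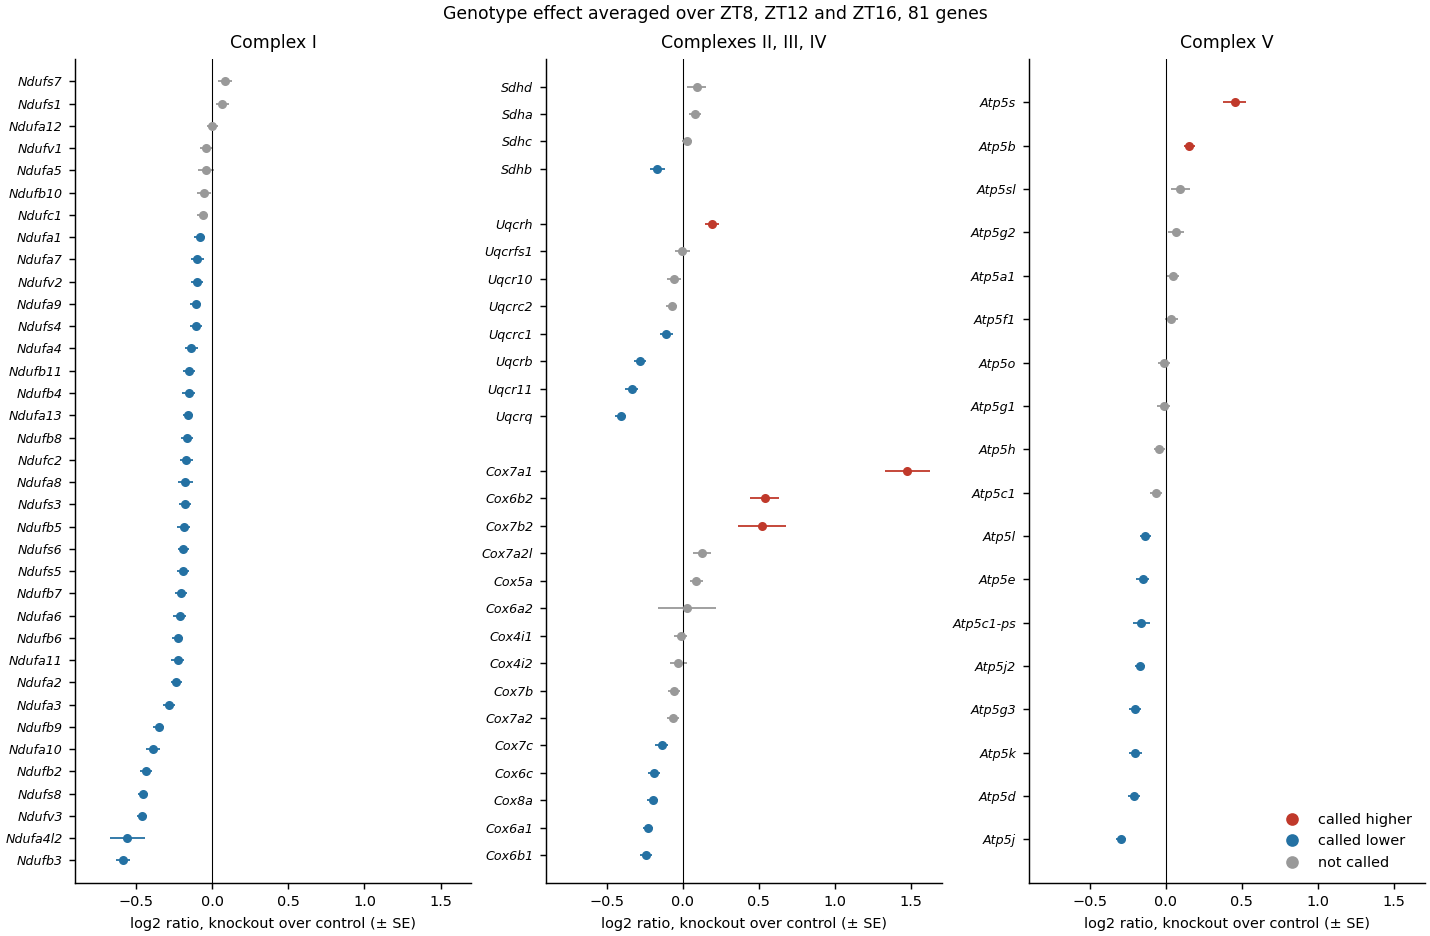
Knockout minus control log2 difference of 81 of the 82 members averaged over ZT8, ZT12 and ZT16, sorted within complexes I to V, with standard errors from limma; colour marks members called lower, higher or neither. Complex I lies mostly below 0, with Ndufb3 lowest at −0.59 among its widely expressed subunits, and Cox7a1 in complex IV stands at 1.47.

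More members were called lower at the later times. At ZT8, 19 members were lower and 6 higher, where 18.7% of all genes were lower and 16.7% higher, and the members' median was −0.06. Under quantile normalization the ZT8 split was 40 lower and 4 higher, and under median scaling 21 lower and 3 higher. At ZT12, 31 were lower and 4 higher (all genes 22.7% and 19.6%; members' median −0.14), and with the authors' own values 28 lower and 8 higher. At ZT16, 42 were lower and 4 higher (all genes 20.1% and 20%; members' median −0.18). As shares, 23.2%, 37.8% and 51.2% of the members were lower at ZT8, ZT12 and ZT16. Among other genes of like level 29.3%, 38.6% and 35.8% were. With this scaling the members as a whole thus exceeded genes of like level at ZT16 only. Complex I had 11, 19 and 25 genes lower at the 3 times (29.7%, 51.4% and 67.6%), with medians of −0.09, −0.18 and −0.21. The medians of complex IV at ZT8 (0.03) and of complex V at ZT8 (0.00) became −0.12 and −0.10 under quantile normalization.

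Each mouse can be described by the mean difference of its complex I genes from the control mean of its time. Among knockouts this ran from −0.30 to 0.06 at ZT8, with a median of −0.08, from −0.39 to −0.13 at ZT12, with a median of −0.19, and from −0.28 to −0.09 at ZT16, with a median of −0.23. Controls stayed within −0.11 to 0.06. At ZT16 the knockouts all lay below every control, at ZT12 they did so as well, and at ZT8 they overlapped. In each knockout group the array with the lowest value had the highest 75th percentile. The 2 lowest knockouts at ZT8 (replicates 3 and 4, −0.30 and −0.24) had the 2 highest 75th percentiles of that group, 495 and 482, and the lowest at ZT12 (replicate 6, −0.39) had the highest of all arrays, 525. At ZT16 the highest knockout (replicate 6, −0.09) had the lowest of its group, 369. The order was not complete: the ZT8 knockout with the lowest 75th percentile (replicate 2, 331) stood at −0.06, below replicate 1 at 0.06. Among ZT12 controls it ran the other way, with the lowest 75th percentile (replicate 1, 343) at −0.11 and the highest (replicate 2, 390) at 0.06. The 75th percentile averaged 382, 371 and 373 in controls and 403, 438 and 420 in knockouts at ZT8, ZT12 and ZT16, and its part in the differences was not tested. Without replicate 3 of the ZT8 knockouts 13 members were higher at ZT8, in place of 6, and 12 averaged over the times, in place of 7; without replicate 6 of the ZT12 knockouts the latter count was also 12. Replicate 3 at ZT8 and replicate 6 at ZT16 were on 1 slide (slide 3). Without the 5 arrays of that slide, a check chosen after seeing the data, 12 members were lower and 12 higher at ZT8, 41 and 2 at ZT12, 48 and 4 at ZT16, and 46 and 8 averaged over the times.

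**Figure D2:**
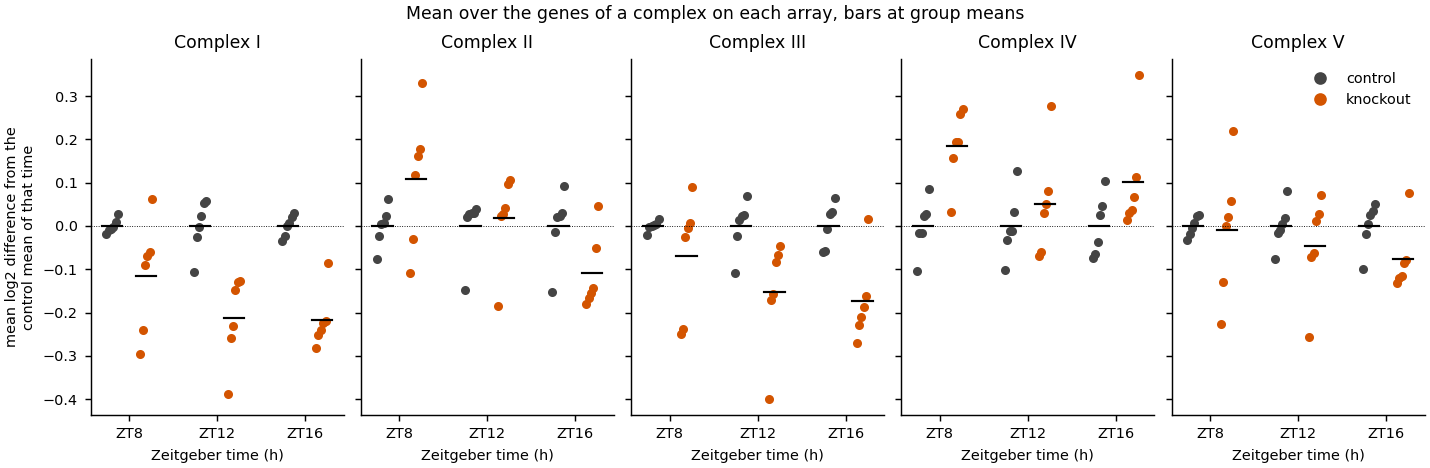
Mean log2 difference of each complex's genes from the control mean of the same time, 1 point per array, by genotype and time. Complex I points of knockouts lie at or below −0.09 at ZT16 and at or below −0.13 at ZT12, while at ZT8 they spread from −0.30 to 0.06.

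Complex I is built from a matrix arm, which oxidises NADH and reduces ubiquinone, and a membrane arm, which pumps protons. Its accessory subunits of the membrane arm, the Ndufb group, included the largest fall of a widely expressed subunit. Ndufb3 is such a subunit, read by a probe at chr1:58652622-58652681 (mm9). At ZT8 the lowest, median and highest Ndufb3 levels were 5.42, 5.47 and 5.62 in controls and 5.0, 5.14 and 5.39 in knockouts. Levels of Ndufb3 at ZT12 were 5.58, 5.62 and 5.91 in controls and 4.76, 4.93 and 5.06 in knockouts. Those at ZT16 were 5.46, 5.54 and 5.68 in controls and 4.74, 4.89 and 5.13 in knockouts. Every knockout was below every control at all 3 times, and the gap was narrowest at ZT8. The difference was −0.34, −0.75 and −0.67 at ZT8, ZT12 and ZT16, and averaged −0.59 ± 0.04 SE, a change of −33.4% (adjusted p = 9.02e-13 by limma). Within the 3 wash batches named in the labels it was −0.50, −0.63 and −0.60.

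Ndufs8, an iron-sulphur subunit that carries electrons toward ubiquinone, gave nearly the same difference at each time. Its level at ZT8 was 5.55, 5.73 and 5.77 (lowest, median and highest) in controls and 5.21, 5.23 and 5.35 in knockouts. At ZT16 it was 5.79, 5.88 and 6.04 in controls and 5.27, 5.43 and 5.47 in knockouts. The groups did not overlap at any of the 3 times. Differences of Ndufs8 were −0.44, −0.45 and −0.48, averaging −0.46 ± 0.03 SE (a change of −27.1%, limma adjusted p = 1.85e-13). Ndufv3, an accessory subunit next to the NADH-oxidising site, was lower by a like amount (−0.42, −0.50 and −0.47; mean −0.46, limma adjusted p = 2.49e-13), again with no overlap at any time. Ndufb2, another membrane-arm subunit, differed by −0.46, −0.43 and −0.41 with no overlap, but by −0.17, −0.16 and −0.16 with the mean over its 3 probes, where the ZT12 call was lost. Ndufb9 averaged −0.35, also with no overlap at any time. Ndufa10 differed by −0.40, −0.38 and −0.39, and its groups overlapped at ZT8 only. Its 3 kept probes did not all share a sign in the average, and 2 of them were called. In all, 10 of the 37 complex I genes were called lower at each of the 3 times, beside 2429 of all 22916 genes. Of the 29 complex I genes called lower averaged over the times, 20 others lay between −0.28 (Ndufa3) and −0.08 (Ndufa1).

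Among the other complex I genes, the core subunits Ndufs1, Ndufs7 and Ndufv1 were not called averaged over the times. Neither were the accessory subunits Ndufa5, Ndufa12, Ndufb10 and Ndufc1. The core subunits Ndufs8, Ndufs3 and Ndufv2 were called lower in that average.

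Ndufv2, which holds an iron-sulphur cluster of the NADH-oxidising unit, changed its difference with time. At ZT8 its level was 5.25, 5.33 and 5.36 (lowest, median and highest) in controls and 5.22, 5.45 and 5.59 in knockouts. By ZT16 Ndufv2 was at 5.50, 5.56 and 5.62 in controls and 5.18, 5.21 and 5.60 in knockouts. Of the 6 ZT16 knockouts, 5 lay below all controls and replicate 6 lay within them. Differences were 0.11, −0.12 and −0.30, the last called (limma adjusted p = 0.000996). A second, dim Ndufv2 probe (mean level −3.28) differed by 0.55 at ZT16, and the mean of both probes turned the ZT16 difference to 0.13 (limma adjusted p = 0.293) and the average to 0.13 (limma adjusted p = 0.0389). Of 31 members with more than 1 kept probe, 17 had the same sign on all of them in the average. Ndufb2, Ndufa13, Ndufs5, Ndufv2, Ndufb8 and Atp5j2 had probes called in opposite directions, in each case with the dimmer probe higher in knockouts.

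Ndufa4l2, a paralog of Ndufa4 known to be induced by hypoxia, had the widest change of difference over the times in complex I as grouped here. Its level was −0.79, −0.56 and −0.48 (lowest, median and highest) in ZT8 controls and −2.33, −1.32 and −0.74 in ZT8 knockouts. For ZT16 the values were −0.92, −0.72 and −0.50 in controls and −1.29, −0.77 and −0.45 in knockouts. At ZT8 the groups overlapped by 1 knockout, and at ZT16 they overlapped widely. The differences were −0.88 (limma adjusted p = 0.00102), −0.73 (adjusted p = 0.00466 by limma) and −0.07 (adjusted p = 0.824 by limma), but the F test did not call a change with time (limma adjusted p = 0.13). Ndufa4 averaged −0.14 (limma adjusted p = 0.00522; −0.29 under quantile normalization).

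**Figure D3:**
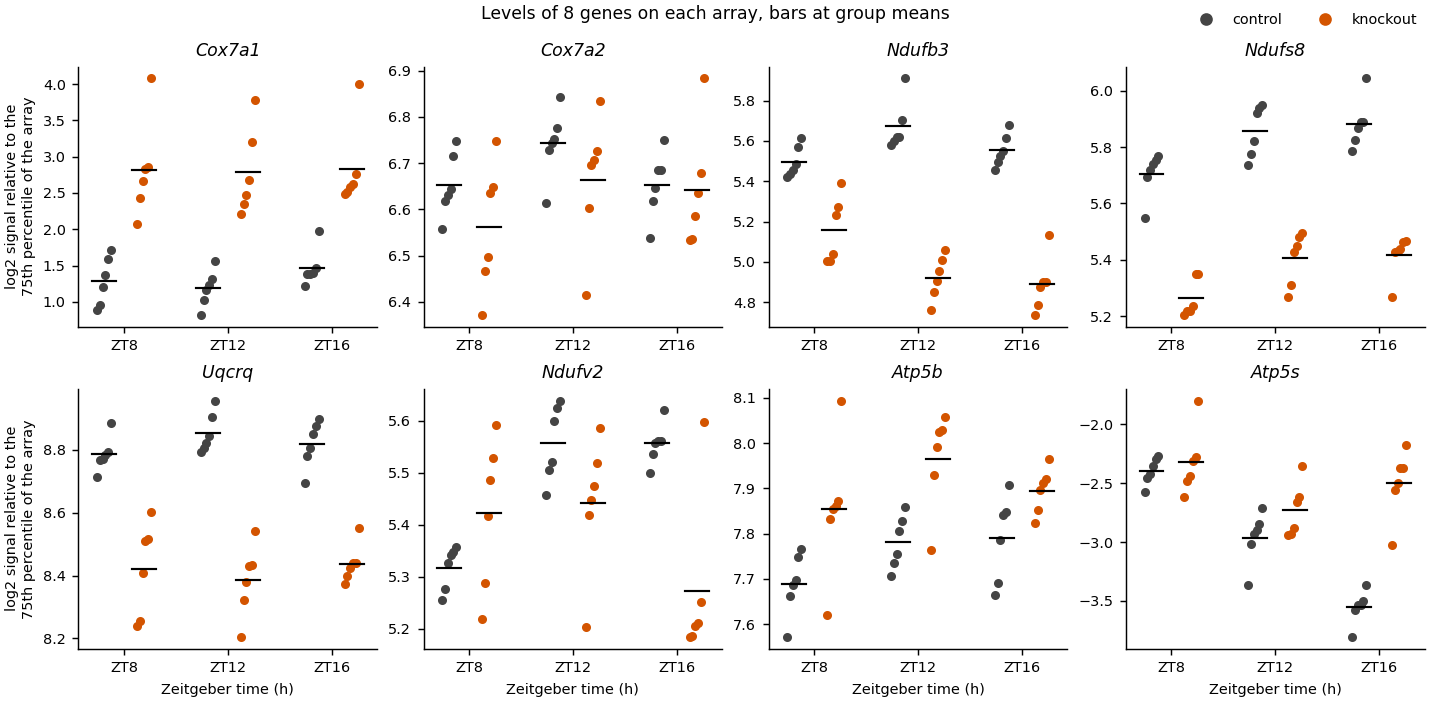
Level (log2 intensity minus the array's 75th percentile) of selected members in each of the 36 mice, by genotype and time, with group means. Every knockout lies above every control for Cox7a1 and below every control for Ndufb3 at all 3 times, while Atp5s separates at ZT16 only.

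Complex II had no gene with the same call at every time. Sdhb, its iron-sulphur subunit, was at 7.46, 7.57 and 7.75 (lowest, median and highest) in ZT16 controls and 7.17, 7.26 and 7.46 in ZT16 knockouts. These groups just touched, and the difference was −0.32 (limma adjusted p = 0.00582), while at ZT8 (−0.10) and ZT12 (−0.08) it was not called. Sdhc, a membrane anchor, was at 4.39, 4.45 and 4.53 in ZT8 controls and 4.45, 4.68 and 4.76 in ZT8 knockouts, which overlapped. Its difference of 0.18 at ZT8 was called (limma adjusted p = 0.0173), though not under median scaling (0.11, limma adjusted p = 0.244), and it was 0.02 and −0.12 later. Sdhd, the other anchor, had 0.27 at ZT8 (limma adjusted p = 0.0563), 0.04 and −0.03. Sdha, the flavin subunit that oxidises succinate, averaged 0.08 ± 0.04 SE (limma adjusted p = 0.0877).

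In complex III the genes called lower were Uqcrq, Uqcr11, Uqcrb and Uqcrc1. Uqcrq, one of the small subunits beside cytochrome b, was at 8.71, 8.78 and 8.88 (lowest, median and highest) in ZT8 controls and 8.24, 8.46 and 8.60 in ZT8 knockouts. At ZT12 its level was 8.79, 8.83 and 8.96 in controls and 8.21, 8.41 and 8.54 in knockouts. Levels at ZT16 were 8.70, 8.83 and 8.90 in controls and 8.37, 8.43 and 8.55 in knockouts. No knockout reached the lowest control at any time, and the average difference was −0.41 ± 0.03 SE, a change of −24.7% (limma adjusted p = 1.05e-11). Uqcr11 differed by −0.34, −0.37 and −0.29. Uqcrb, another small subunit, differed by −0.11, −0.30 and −0.44, called at ZT12 and ZT16, where its groups did not overlap. Uqcrc1 is a core subunit, and Uqcr10, Uqcrc2 and Uqcrfs1, the Rieske iron-sulphur protein, were not called in the average. Uqcrh, the hinge protein that helps dock cytochrome c1 and cytochrome c, was higher by 0.22 at ZT8 and 0.24 at ZT12 and by 0.19 averaged (limma adjusted p = 0.00043); under quantile normalization that average was 0.09 (limma adjusted p = 0.0707).

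Complex IV is the complex with the most tissue-dependent isoforms, and Cox7a1 had the largest difference of all members. Cox7a1 is the heart and skeletal muscle form of subunit 7a, also known from brown fat, and its probe spans chr7:30970337-30970948 (mm9). At ZT8 its lowest, median and highest levels were 0.89, 1.29 and 1.71 in controls and 2.07, 2.75 and 4.08 in knockouts. The ZT12 levels were 0.82, 1.19 and 1.57 in controls and 2.22, 2.58 and 3.78 in knockouts. At ZT16 they were 1.22, 1.39 and 1.98 in controls and 2.48, 2.60 and 4.00 in knockouts. Every knockout was above every control at each time, with 1 knockout per time above the rest of its group. Differences were 1.54, 1.6 and 1.29, averaging 1.47 ± 0.15 SE (178% higher, limma adjusted p = 8.46e-10). Within the 3 wash batches the difference was 2.02, 1.11 and 1.35. The 3 highest knockouts, replicate 3 at ZT8, replicate 1 at ZT12 and replicate 6 at ZT16, shared slide 3 and stood at 3.78 to 4.08, against 2.07 to 3.20 for the other 15 knockouts. The 2 controls on that slide were at 1.02 and 1.59, within the range of the other controls. With slide as a block the average was 1.45 (limma adjusted p = 1.2e-09), and without the 5 arrays of that slide 1.28 (limma adjusted p = 1.65e-10).

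Markers of other cells that are known to express Cox7a1 were looked up beside it. Of 9 skeletal or heart muscle markers, Acta1, Ckm, Myh1, Myh2 and Actn3 did not pass the background filter and 0 of the other 4 were called. Their summed linear level was 0.20 to 0.40 in controls and 0.22 to 0.34 in knockouts. Of 4 brown fat markers, Ucp1 and Dio2 did not pass the filter either, Cidea averaged 0.27 and was not called (limma adjusted p = 0.156), and Elovl3, which male liver is also known to express, was called lower (−7.10, limma adjusted p = 2.61e-15), with some knockout arrays not well above background. The part of these markers in the Cox7a1 difference was not tested. Cox7a2, the liver form of subunit 7a, differed by −0.09, −0.08 and −0.02 and averaged −0.06 ± 0.04 SE, which was not called (limma adjusted p = 0.174). Cox6b2, known from testis, was at −3.56, −2.73 and −2.42 (lowest, median and highest) in ZT8 controls and −2.31, −2.23 and −1.79 in ZT8 knockouts, with no overlap. Its differences were 0.69, 0.37 and 0.55, called at ZT8 and ZT16, and averaged 0.54 ± 0.10 SE (limma adjusted p = 1.65e-05). Cox7b2, also known from testis, averaged 0.52 (limma adjusted p = 0.00487), while of 3 measured testis markers 1 was lower and 0 higher. With normexp the averages of Cox6b2 and Cox7b2 were 0.23 and 0.24. Both are read by dim probes, with mean levels of −2.84 and −2.53 in ZT8 controls. The part of signal level in their differences was not tested. The widely expressed or liver forms, whose probes were brighter, went the other way or were not called. Cox6a1, the liver form of subunit 6a, was at 8.95, 9.03 and 9.12 in ZT8 controls and 8.57, 8.88 and 8.93 in ZT8 knockouts, with no overlap, and averaged −0.23 ± 0.03 SE (limma adjusted p = 1.2e-06); its ZT8 and ZT16 calls were lost under quantile normalization. Cox6b1 averaged −0.24, Cox8a −0.20 and Cox6c −0.19, all called. With the authors' values Cox6a1 and Cox6b1 averaged −0.12 each, and under quantile normalization Cox6c averaged −0.33. Cox4i1 averaged −0.02 and Cox4i2, known from lung, −0.03, and neither was called. Cox6a2, the heart form of 6a, averaged 0.03 with an SE of 0.19. Cox4i2 and Cox6a2, also on dim probes, were thus tissue forms that were not called. Because of Cox7a1 and its like, the mean over complex IV genes in each ZT8 knockout was 0.03 to 0.27 although the median gene differed by 0.03.

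In complex V, Atp5b, the catalytic beta subunit, was higher, while some stalk and membrane subunits were lower and others were not called. Not called in the average were Atp5f1 (0.04), Atp5h (−0.04) and Atp5o (−0.01) of the peripheral stalk, and Atp5c1 (−0.06) of the central stalk. Atp5b was at 7.57, 7.69 and 7.77 (lowest, median and highest) in ZT8 controls and 7.62, 7.86 and 8.09 in ZT8 knockouts, which overlapped. Its differences were 0.17, 0.18 and 0.11, averaging 0.15 ± 0.04 SE (limma adjusted p = 0.000552), and this call was lost under quantile normalization (0.06, limma adjusted p = 0.129) and median scaling (0.09, limma adjusted p = 0.112). Atp5j, the coupling factor of the peripheral stalk, was at 6.69, 6.74 and 6.84 in ZT16 controls and 6.31, 6.42 and 6.46 in ZT16 knockouts. It differed by −0.23, −0.30 and −0.36, with no overlap at ZT12 and ZT16. Atp5d of the central stalk averaged −0.21, Atp5k, a small subunit of the membrane part, −0.20 and Atp5g3, which encodes the c-ring, −0.20. Over the alternatives the average ran from −0.27 to −0.11 for Atp5d, from −0.33 to −0.18 for Atp5k and from −0.59 to −0.27 for Atp5j, called in each. Atp5g3 was not called when all of its probes were averaged (−0.07, limma adjusted p = 0.255), and its paralogs Atp5g1 and Atp5g2 were not called in the average. Atp5g1 was called lower at ZT16 (−0.18, limma adjusted p = 0.0421), a call lost in 15 of 51 alternatives. Atp5c1-ps was called lower and Atp5c1 was not, and their probes may share signal, so that split is uncertain.

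Atp5s, a protein named for a coupling factor, had the largest change of difference with time. At ZT8 its level was −2.57, −2.39 and −2.27 (lowest, median and highest) in controls and −2.62, −2.38 and −1.80 in knockouts. At ZT12 it was −3.36, −2.92 and −2.71 in controls and −2.94, −2.77 and −2.36 in knockouts. By ZT16 Atp5s was at −3.81, −3.54 and −3.37 in controls and −3.03, −2.44 and −2.18 in knockouts. The groups overlapped at ZT8 and ZT12 and did not at ZT16. From ZT8 to ZT16 it fell by 1.16 in controls (limma adjusted p = 4.85e-08), while knockouts differed by −0.16 between those times (limma adjusted p = 0.396). The knockout minus control difference was 0.06, 0.25 and 1.05, and the F test called it as changing with time (limma adjusted p = 0.00106; 0.104 with normexp background correction). With normexp the ZT16 difference was 0.33 and the controls' fall over time −0.43, and the call of neither was lost. This probe is dim, far under the array's 75th percentile.

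Whether the genotype difference changed between ZT8, ZT12 and ZT16 was tested by an F test in limma. It called 3 of the 82 members, Atp5s, Ndufv2 (adjusted p = 0.0228) and Ndufb3 (adjusted p = 0.0243), where 8.46% of all genes were called. At an unadjusted p under 0.05 it took 13 of the 82 members and 4924 of all 22916 genes, a larger share. The difference was lower at ZT16 than at ZT8 in 66 of 82 members, against 11647 of 22916 genes. The call for Ndufb3 was lost without replicate 5 of the ZT8 knockouts (adjusted p = 0.0618 by limma), under quantile normalization (0.103), under median scaling, with normexp, without a filter on dim probes and with the authors' values. The F test's count was 10 without replicate 3 of the ZT8 knockouts, 8 without replicate 6 of the ZT16 knockouts and 5 without replicate 4 of the ZT8 knockouts. Without the 5 arrays of slide 3 it was 13, and then took in Sdhc, Uqcrb, Ndufa4l2 and Atp5g1 as well, which were named here after their values were seen.

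**Figure D4:**
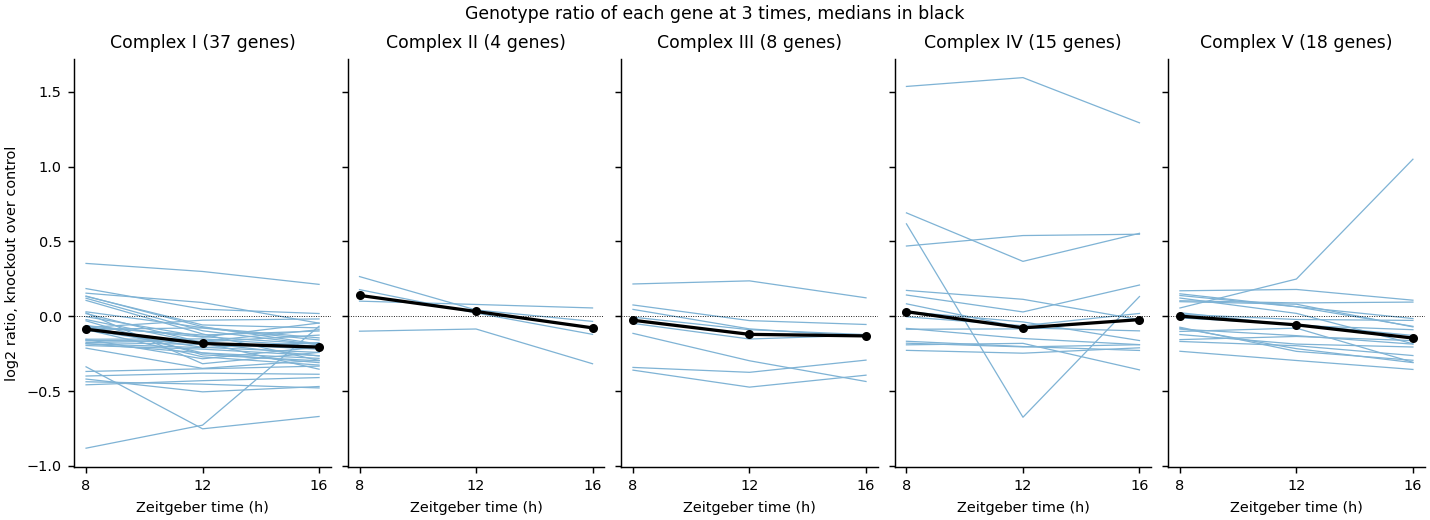
Knockout minus control log2 difference at ZT8, ZT12 and ZT16, 1 line per member in panels by complex, with the complex median. The medians of complex I go from −0.09 to −0.18 to −0.21, and Atp5s in complex V goes from 0.06 to 1.05.

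Within a genotype, most members were not called between ZT8 and ZT16. In controls 13 were higher and 2 lower at ZT16 than at ZT8 (all genes 13.4% and 13.2%), with a member median of 0.10 against 0.04. This count turned on the scaling, with 2 higher and 3 lower under quantile normalization, 1 and 2 under median scaling, and 7 and 4 in the authors' table. In knockouts 3 were higher and 9 lower (all genes 15.5% and 13.4%), with a median of −0.01, and the split was 1 and 12 under median scaling and 7 and 9 in the authors' table. Without replicate 6 of the ZT16 knockouts 16 were lower, without the 5 arrays of slide 3 22 were, and without replicate 1 or replicate 5 of the ZT8 knockouts 5 were. Sdhd fell by 0.46 from ZT8 to ZT16 in knockouts (limma adjusted p = 0.00152) and differed by −0.16 in controls (limma adjusted p = 0.313). Ndufb2 rose in both genotypes, by 0.22 in controls and 0.26 in knockouts. Atp5sl was called lower in both, with a mean level of 3.62 at ZT8 and 3.20 at ZT16 in controls and 3.73 and 3.28 in knockouts. Ndufa4l2 was called higher in knockouts, where its mean level was −1.44 at ZT8 and −0.80 at ZT16. The largest change in controls was that of Atp5s (−1.16).

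The promoter letters were set beside the differences as a description. Of the 39 members with at least 1 of the 4 motifs, 27 were lower and 1 higher averaged over the times, with a median of −0.17. Among the 28 without, 13 were lower and 5 higher, with a median of −0.06. Over all genes, 35.7% of the 3783 with a match and 31.1% of the 8814 without were lower. By motif, 13 of the 16 members with the ETS letters were lower, against 27 of the 51 without. For NRF1 the counts were 10 of 17 with and 30 of 50 without, and for YY1 7 of 11 and 33 of 56. For ERR they were 7 of 8 and 33 of 59. Over all genes with a match, 36.5% (ETS), 37% (NRF1), 36.2% (YY1) and 32.2% (ERR) were lower. Without a match these shares were 31.7%, 32%, 32.3% and 32.5%. Ndufb3, with the deepest fall of the widely expressed subunits, held none of these motifs, as its printed window shows.

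Of 9 measured regulators of these genes, 4 were higher and 2 lower averaged over the times, beside 30% and 30.1% of all genes. Ppargc1a rose (2.09 ± 0.11 SE, limma adjusted p = 3.12e-16), as did Nrf1 (0.46), Pprc1, a related coactivator (0.38), and Esrra, the gene of ERRalpha (0.34). Esrrg, of the same receptor family, fell (−2.59), Yy1 fell (−0.31), and Gabpa at −0.08 was not called. Perm1, another coactivator on the list, gave no value.

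Genes that assemble the complexes were mostly lower as well. The counts that follow stand beside 30.1% of all genes lower and 30% higher in the same average. Of 15 genes listed for assembly of complex I, 10 were lower and 1 higher (median −0.30). That list includes Ndufab1, which is itself a subunit and was not called (−0.03). Tmem126b, part of the machinery that joins the membrane arm, fell (−0.69), as did Ndufaf3 (−0.47) and Ndufaf1 (−0.42). Of 35 assembly genes of complexes II to V, 27 were lower and 4 higher (median −0.21). Coa6, which helps deliver copper to complex IV, fell (−1.10 ± 0.07 SE, limma adjusted p = 8.14e-15), and so did Cox19 (−0.78), while Sco2, another copper chaperone of complex IV, rose (0.44). Among 18 carriers and ubiquinone genes, 5 were higher and 9 lower (median −0.09). One of the 9 was Cyc1 (−0.09, limma adjusted p = 0.0493), a subunit of complex III. Atpif1, the inhibitor of ATP synthase, rose (0.43), cytochrome c (Cycs) fell (−0.24), and of the ADP/ATP carriers Slc25a4 rose (0.35) and Slc25a5 fell (−0.36). Of 12 genes of mitochondrial DNA upkeep and transcription, 4 were higher and 6 lower (median −0.10), and Tfam (−0.00) was not called. Of 13 genes of the tricarboxylic acid cycle, 4 were higher and 1 lower (median 0.06): fumarase (Fh1) rose (0.95) and citrate synthase (Cs) fell (−0.44). These medians stand beside −0.12 for the 82 members and −0.00 for all genes, and no difference between lists was tested.

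**Figure D5:**
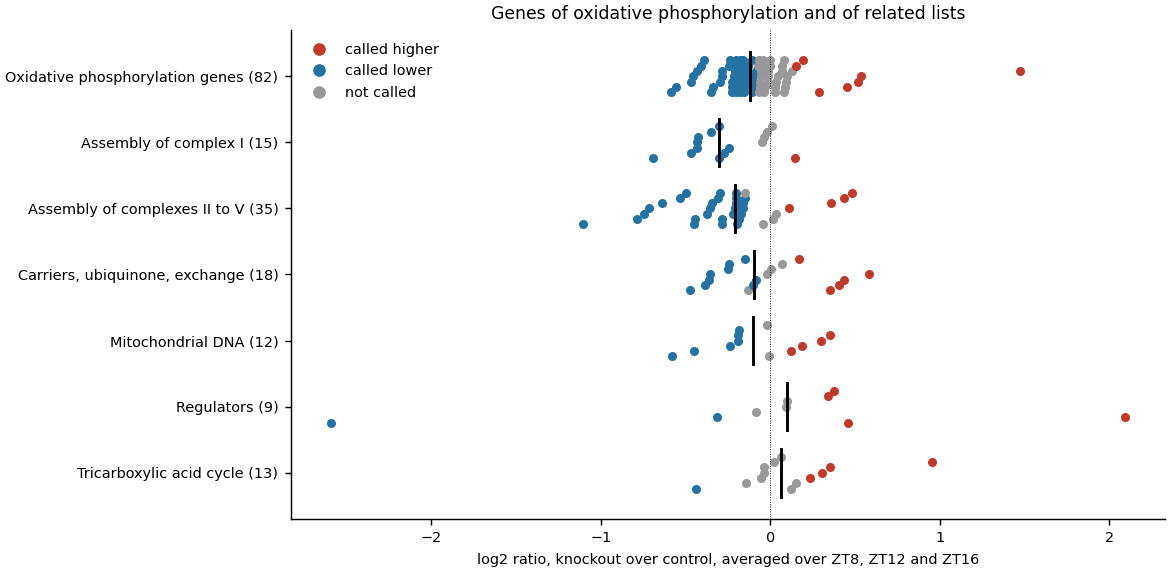
Knockout minus control log2 difference averaged over the 3 times for the 82 members and each gene of 6 related lists, 1 point per gene, with the list median. The medians are −0.30 and −0.21 for the assembly lists and 0.06 for the tricarboxylic acid cycle; Ppargc1a stands at 2.09 and Esrrg at −2.59.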

How the data were processed

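Liver RNA of 36 mice was measured on 1-colour Agilent SurePrint G3 Mouse GE v2 arrays from 200 ng of total RNA per sample, per the series' design text and the labels. Spot intensity was extracted with Agilent Feature Extraction 10.10.1.1, and limma was used by the authors, per the submitters' processing notes. The deposited processed signal is a linear intensity, background-subtracted and detrended but not scaled between arrays, per the file headers, and the deposited spot flags are other values of 0 or 1. The authors' deposited values hold 32801 probes as log2 values, whose sorted columns are identical, as quantile normalization leaves them; they served as an alternative.

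Levels (log2 intensity less the log2 75th percentile of that array's gene spots) were computed in R 4.3.3 with the data.table package, version 1.17.8. Flagged outlier spots were left out, spots of a probe averaged, and a probe stayed if 6 or more of 36 arrays read it as well above background, which left 34678 after 91 with missing values were removed. Each gene took its brightest probe by mean. limma 3.58.1 fitted the 6 groups with wash batch as a fixed effect (28 residual degrees of freedom), and p-values were adjusted by Benjamini-Hochberg over 22916 genes. Like-level genes are those between the members' 10th and 90th percentile of mean level. Positions are mm9 as in the files, and no genome of that build was used here.

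The members and lists were chosen with earlier results of these data known. Named by rule were up to 3 called rises and falls, the largest, per complex for each genotype contrast and over all members for ZT16 against ZT8 in each genotype, complex II, up to 6 members called by the F test, isoform families, Insr and the members nearest the filter; others are named by role or after their values were seen. Of these, 1 gene is not reported here. No 2 arrays held identical values. On simulated data with known changes, the average over the times called 17 of 50 genes changed by 0.25 and 40 of 50 changed by 0.5 (log2), and single times 1 to 4 and 22 to 26. The changed genes were drawn at random from all 22916, and far fewer were changed than were called in the real data. Alternatives covered background correction, scaling, filters, probes, blocks, weights, the authors' table, the groups fitted and each array left out; leaving out 1 slide was added after seeing the data.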

Additional observations from a re-analysis of the deposited data

Results flagged for a closer look

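In groups of 6 mice, a value far from the other 5 was looked for in 40 named genes and 6 groups, 240 sets in all. By Dixon's gap over range at its 95% critical value for 6 samples, 21 sets held such a value, where chance flags about 1 in 20, or 12 sets. Replicate 6 of the ZT16 knockouts was the sample apart in 5 of them: Ndufv2 (gap over range 0.835), Cox7a1 (0.813), Sdhd (0.762), Atp5k (0.754) and Atp5g1 (0.699). For Cox7a1 it stood at 4.00 against 2.76 for the next knockout. Replicate 6 of the ZT12 knockouts, the array with the highest 75th percentile (525), was apart in 4: Sdhc (0.882), Uqcrb (0.799), Uqcr11 (0.695) and Cox6a1 (0.628). Replicate 3 of the ZT8 knockouts was apart for Atp5sl (0.71) and Atp5g2 (0.67). The other ZT16 knockouts apart were replicate 4 for Ndufs8 (0.8) and Ndufa11 (0.658), replicate 3 for Cox4i2 (0.628) and replicate 5 for Insr (0.765). Among controls, replicate 6 at ZT16 was apart for Atp5sl (0.675), Sdha (0.667) and Ndufa4 (0.655), replicate 3 at ZT16 for Cox7a1 (0.675), replicate 2 at ZT8 for Sdhd (0.768) and replicate 1 at ZT8 for Ndufs8 (0.663).

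The knockout minus control difference changed between times by limma's F test in 3 members. The difference at ZT16 minus that at ZT8 was 0.99 for Atp5s, −0.40 for Ndufv2 and −0.33 for Ndufb3 (adjusted p = 0.00106, 0.0228 and 0.0243 by limma's F test). Atp5s is read by a dim probe, and Ndufv2's second probe went the other way.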

How the results depend on the processing

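All 54 members called in the average kept their direction under each alternative that gives an average except the mean over all kept probes, where 50 did. With a replicate block, counts of higher and lower members were 6 and 16 at ZT8, 4 and 31 at ZT12, 4 and 38 at ZT16, 7 and 45 averaged, 11 and 2 for ZT16 against ZT8 in controls, 2 and 8 in knockouts, and 3 by the F test; over 90 same-number pairs 14 correlations were above 0.1, and 8 of 36 arrays correlated best with their own number, so the numbers were not taken to pair the mice. Normexp gave 11 higher averaged, 5 higher in knockouts over time and 1 by the F test. Quantile normalization gave 40 lower at ZT8 and 49 at ZT12, 2 higher in controls, and medians at ZT8 of −0.16 (all), −0.22 (I), −0.17 (III), −0.12 (IV) and −0.10 (V), at ZT12 −0.28 (I), at ZT16 −0.31 (I), −0.23 (III) and −0.14 (IV), and averaged −0.28 (I), −0.20 (III) and −0.15 (V). Median scaling gave 3 higher at ZT8, 2 at ZT12, 1 in controls and 1 in knockouts, 1 by the F test, and ZT16 medians of −0.27 (all), −0.30 (I), −0.17 (II), −0.11 (IV) and −0.24 (V). Without a filter on dim probes the F test took 1. Slide as a fixed block left 3 lower in knockouts. Array weights gave 12 higher at ZT8, 29 in controls, 18 lower in knockouts and 17 by the F test. The authors' table gave 8 higher at ZT12 and at ZT16, 14 averaged, a complex II median of 0.13 at ZT12, 7 higher and 4 lower in controls, 7 higher in knockouts and 1 by the F test. Fitting only the groups compared, which gives no average and no F test, left 3 higher and 9 lower at ZT8, 2 higher at ZT12, and 0 higher and 1 lower in knockouts. Leaving out slide 3 gave 12 higher and 12 lower at ZT8, 2 higher at ZT12, 22 lower in knockouts and 13 by the F test. The causes were not tested. Leaving out each array gave 4 to 13 higher and 13 to 24 lower at ZT8, 3 to 5 and 26 to 35 at ZT12, 4 to 5 and 31 to 45 at ZT16, 7 to 12 and 43 to 49 averaged, 10 to 18 and 2 to 2 in controls, 2 to 6 and 5 to 16 in knockouts, and 2 to 10 by the F test. Ndufv2 turned to 0.13 at ZT16 and 0.13 averaged with the mean of its probes. No scaling moved the median of all genes by over 0.1. The number of arrays and dim probes limit precision. At single times most changes of 0.25 were not called on simulated data. Far fewer genes were changed there than were called here, and they were drawn from all genes, so this does not give the power for the members.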
